A study of Mus musculus with 4 samples.

Results

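The genes of gamma-delta T cells and of the type 17 program of T cells were followed through the immune infiltrate of mouse gliomas. The 8 genes, chosen by symbol, were Trdc, Trgc1, Trdv4, Cd163l1, Il17a, Il23r, Tmem176a and Tmem176b, and all 8 were found among the 31253 genes of both libraries. Single-cell RNA sequencing, which counts unique molecular identifiers (UMIs, 1 per captured transcript end), was run on live CD45+ cells of tumor-bearing hemispheres, taken on day 14 after CT2a glioma cells were implanted. The hosts were 4 WT and 4 CaMKK2 KO female mice on the C57Bl/6 background, 8 to 12 weeks old, and the KO mice lacked the kinase CaMKK2 in every tissue. Each mouse carried its own hashtag antibody, and the 4 mice of a genotype shared 1 channel of the instrument, so genotype and channel cannot be told apart. The values therefore compare 4 mice with 4 mice, M1 to M4 of each genotype, and the numbers only name the mice.

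A T-cell receptor is built either from alpha and beta chains or from gamma and delta chains, and cells with the second kind are few in lymph nodes but settle in skin, gut, lung and the borders of the brain. Some gamma-delta T cells are committed in the thymus to make interleukin 17 within hours of a signal from interleukin 23 or interleukin 1, without prior priming. Among the 8 genes, Trdc encodes the constant region of the delta chain, Trgc1 a constant region of the gamma chain, and Trdv4 is a variable segment of the delta locus. Il17a encodes the effector cytokine interleukin 17A, which recruits neutrophils, and Il23r the specific subunit of the interleukin 23 receptor. Cd163l1 encodes a scavenger receptor known as a surface marker of interleukin-17-producing gamma-delta T cells, and the neighbours Tmem176a and Tmem176b encode related membrane proteins found in dendritic cells and in type 17 lymphocytes.

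In the annotation of the build mm10 (GENCODE M21), Trdv4 (ENSMUSG00000076867) lay at chr14:54074905-54075515 and Trdc (ENSMUSG00000104876) at chr14:54142851-54148868, 67336 bases downstream on the same strand. Trgc1 (ENSMUSG00000076749) lay at chr13:19214103-19217024 under the name Tcrg-C1. Of its 50-base transcript windows, 34.2% also occurred in Tcrg-C2 or Tcrg-C3, so that part of its UMIs could have been split with or lost to these copies. Cd163l1 (ENSMUSG00000025461) lay at chr7:140218267-140231145, Il17a (ENSMUSG00000025929) at chr1:20730905-20734496 and Il23r (ENSMUSG00000049093) at chr6:67422932-67491855. Tmem176b (ENSMUSG00000029810), at chr6:48833818-48841496 on the minus strand, and Tmem176a (ENSMUSG00000023367), at chr6:48840919-48847071 on the plus strand, ran apart from each other and overlapped by 578 bases at their 5′ ends.

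The starts of 4 of these genes are shown because Il17a encodes the type 17 effector and Il23r the cytokine receptor subunit described above. Tmem176a and Tmem176b were added because they were measured together in nearly every class below. The sequences are those of RefSeq on GRCm38.p6, 5′ to 3′ on the strand of the gene, and the first 2 end at the last base before the start. Capitals mark AGGTCA, a half-site that many nuclear receptors bind, or its reverse complement TGACCT, and TATAAA, the TATA box.
Il17a, chr1:20730655-20730904, plus strand: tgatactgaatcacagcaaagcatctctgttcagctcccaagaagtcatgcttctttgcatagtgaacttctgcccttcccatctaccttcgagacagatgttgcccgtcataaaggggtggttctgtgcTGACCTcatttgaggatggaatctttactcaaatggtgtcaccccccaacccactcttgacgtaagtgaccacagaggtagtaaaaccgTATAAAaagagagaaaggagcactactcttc
Il23r, chr6:67491856-67492105, minus strand: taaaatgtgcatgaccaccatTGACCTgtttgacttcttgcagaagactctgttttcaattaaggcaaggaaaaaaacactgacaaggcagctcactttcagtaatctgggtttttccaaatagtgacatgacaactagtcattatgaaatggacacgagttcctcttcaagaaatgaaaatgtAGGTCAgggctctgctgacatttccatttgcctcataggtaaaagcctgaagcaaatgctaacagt
Tmem176b to Tmem176a, chr6:48841375-48841482, plus strand, the bases between the RefSeq starts of both genes: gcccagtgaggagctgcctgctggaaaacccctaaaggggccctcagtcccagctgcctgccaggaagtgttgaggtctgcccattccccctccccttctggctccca
The Il17a window held the half-site once, beginning 120 bases before the start, and a TATA box beginning 31 bases before it. The Il23r window held the half-site 2 times, beginning 229 and 66 bases before the start, and no TATA box. The 108 bases between Tmem176b and Tmem176a held neither. Searched on both strands over 250 bases, the half-site occurred in 14.0% of 32851 RefSeq windows and the TATA box in 12.4%, so these matches are descriptions of the letters and not of a bound factor. The same search found neither motif before Cd163l1.

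After doublets, unassigned barcodes and outlying cells were left out, 5048 WT and 5630 CaMKK2 KO cells remained, 1004 to 1666 per mouse with 11926123 to 20307864 UMIs. The libraries shared 42 barcodes, 0.628% of the WT and 0.578% of the KO barcodes. Camkk2 itself stood at 27.8, 29.3, 38.7 and 27.9 CPM (UMIs scaled to the total of the cells summed) in the 4 WT mice and at 14.7, 18.4, 13.2 and 22.4 in the KO mice, and the groups did not overlap, though transcript ends can lie outside the deleted part of the gene. Cells were sorted into 13 classes by summed UMIs of marker genes, none of which was among the 8 genes, with minima chosen after the marker counts had been seen. A further 496 cells met no gate, and 24 with T- or NK-cell markers that met no lymphoid gate were left out. The T-cell gate (Cd3d, Cd3e and Cd3g) took 1530 cells and the NK-cell gate (Ncr1, Klrb1c and Klre1) 1398 cells, where T cells held a median of 32 UMIs of the first list and 0 of the second and NK cells 0 and 15. WT mouse M1 gave only 37 T cells, against 132 to 310 in the other mice. The 340 B cells, at a median of 4254 UMIs against 8972.5 in T cells and 7476.5 in NK cells, served as a class that should lack the receptor genes and so show free RNA. Intervals given for shares of cells are exact binomial at 95%, the upper limit given for a count of 0 is the share that 3 counts would make, and both cover counting error only.

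Trdc, the delta constant region, was found in both T cells and NK cells, with an order that varied between mice. Its level was 17.2, 44.1, 15.4 and 48.3 CPM in the T cells of WT mice M1 to M4 and 71.2, 93.2, 39.8 and 175 CPM in those of KO mice M1 to M4. In NK cells it was 42.6, 78.1, 90.8 and 46.7 CPM in WT and 59.6, 46.8, 45.1 and 73.6 CPM in KO mice. Over the 8 mice this gave 63.0 ± 52.0 CPM in T cells and 60.4 ± 18.3 CPM in NK cells (mean ± SD), T cells being the higher of the pair in 4 of 8 mice. The difference within mice was -0.28 on the log2(CPM + 1) scale, and a two-sided exact sign-flip permutation test over the 8 mice gave p = 0.586 (0.781 adjusted over the 8 genes by the Benjamini-Hochberg method).

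The classes differed in how many cells held it. In T cells 86 of 1530 cells had a Trdc UMI (5.62%, interval 4.52 to 6.90%), and these 86 cells held 965 UMIs with a median of 10 per cell. In NK cells 471 of 1398 had one (33.7%, interval 31.2 to 36.2%), and 274 of these 471 cells held a single UMI. Cells with 5 or more Trdc UMIs numbered 67 of 86 among T cells and 17 of 471 among NK cells, as the plot of UMIs per cell shows. B cells had 1 UMI in 340 cells, a share of 0.294%, and the 3029 macrophages had 8 UMIs, so the Trdc in NK cells stood far above the free-RNA level. Thinned to 3000 UMIs per cell, 4.95% of T cells, 16.0% of NK cells and 0.158% of B cells held Trdc. NK cells with Trdc were deeper than NK cells without it in all 8 mice. Of the 496 cells that met no gate, 20 (4.03%) held Trdc.

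**Figure D1:**
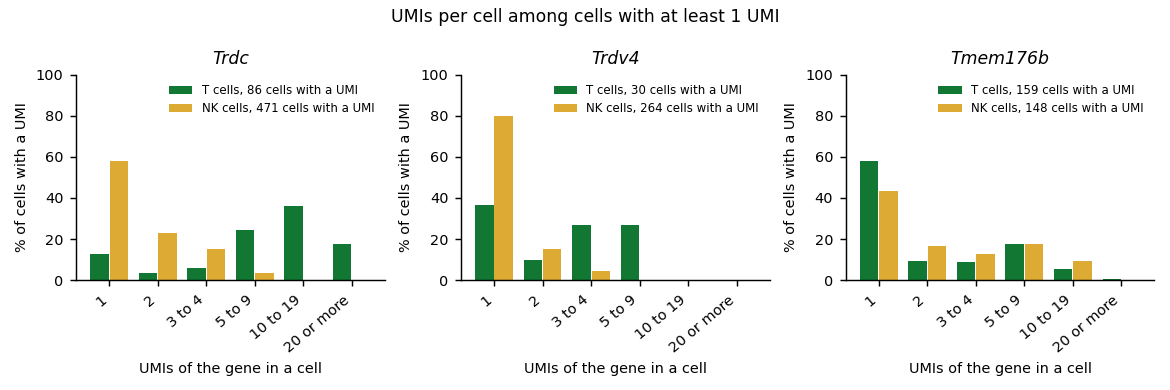
UMIs per cell of Trdc, Trdv4 and Tmem176b (x axis, in bins) among cells with at least 1 UMI, as a percentage of those cells (y axis), for T cells in green and NK cells in yellow. For Trdc most T cells lie at 5 or more UMIs and most NK cells at 1, and for Trdv4 NK cells again gather at 1.

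Trgc1, a gamma constant region, kept to T cells. Trgc4, another gamma constant region, did not, at 19.9 CPM in T cells and 18.9 CPM in NK cells (pooled cells). The level of Trgc1 was 48.1, 34.3, 12.1 and 33.3 CPM in WT and 24.4, 43.6, 15.1 and 55.1 CPM in KO T cells. On average it was 33.2 ± 15.4 CPM in T cells and 1.28 ± 0.802 CPM in NK cells. It was higher in T cells in all 8 mice, by 3.84 on the log2(CPM + 1) scale (exact sign-flip permutation test, p = 0.0078, the smallest it can give, 0.031 adjusted). A Trgc1 UMI was found in 125 T cells (8.17%) and in 16 NK cells (1.14%), and in 0 of 340 B cells, which allows a share of up to 0.882%. Of the 125 T cells, 65 had no Trdc UMI. In these 65 cells Trac, the alpha constant region, was detected in 96.9% and Cd8a or Cd8b1 in 66.2%, so Trgc1 without Trdc was found mainly in cells that also transcribed the alpha chain.

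Trdv4 went the opposite way. It was lower in T cells than in NK cells in all 8 mice, at 6.00 ± 6.03 against 22.5 ± 3.53 CPM and by 2.23 on the log2 scale (p = 0.0078, 0.031 adjusted, same exact permutation test). NK cells of single mice lay between 16.6 and 26.4 CPM, and T cells between 0 in WT mouse M1 and 18.7 in KO mouse M4. The segment was detected in 264 NK cells (18.9%, with a median of 1 UMI) and in 30 T cells (interval of the share 1.33 to 2.79%, with a median of 3), and in 0 of 340 B cells. Of the 16 basophils and mast cells, 2 from 1 WT mouse held it, with 2 UMIs in all. Within NK cells Trdc and Trdv4 were not found together more often than apart. Trdv4 was present in 18.3% ± 8.2 of the NK cells with Trdc and in 18.5% ± 1.9 of those without (mean ± SD, 8 mice), and the first share was the higher in 4 of 8 mice. In T cells, in contrast, 28 of the 30 cells with Trdv4 also held Trdc.

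Cd163l1, the scavenger receptor, was a T-cell transcript in few cells. It reached 6.87, 5.39, 0 and 14.5 CPM in WT and 16.3, 35.1, 7.97 and 37.3 CPM in KO T cells, with 240 UMIs in 36 cells (2.35%). NK cells held 10 UMIs in 4 cells, 7 of them in a single cell, and T cells were the higher class in 7 of 8 mice (2.78 on the log2 scale, exact permutation p = 0.0156, 0.042 adjusted). None of 340 B cells and 0 of 3029 macrophages had a Cd163l1 UMI, the latter at a median of 15395 UMIs per cell and with an upper limit of 0.0990%.

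Il17a came from very few cells. It was detected in 14 of 1530 T cells (0.915%, interval 0.501 to 1.53%), with 175 UMIs in all, and in 1 NK cell and 1 mature dendritic cell with 1 UMI each. Among the 3029 macrophages, 666 microglia and 2167 classical monocytes it was not detected. A single cell of KO mouse M1 held 75 UMIs, 42.9% of the T-cell total, and the 3 highest cells held 69.7%. The difference from NK cells was 2.08 on the log2 scale, higher in T cells in 6 of 8 mice, and its exact permutation p was 0.031 (0.062 adjusted), past the threshold before but not after adjustment. Its relative Il17f was seen with 1 UMI in T cells and Il22 with none, so of the classic type 17 cytokines only Il17a could be followed.

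Il23r was scarce everywhere, and mature dendritic cells stood beside T cells. T cells held 16 UMIs in 12 cells (0.784%, interval 0.406 to 1.37%), none of 1398 NK cells had one (up to 0.215% is allowed), and neither had any of the 3029 macrophages. The limit from the B cells, 0 of 340 cells or up to 0.882%, does not separate the T-cell share from free RNA, but the limit from the macrophages does. Mature dendritic cells, which carry Ccr7 and Fscn1 and move antigen to lymph nodes, held 13 UMIs in 10 of 219 cells (4.57%, interval 2.21 to 8.24%) from 5 mice, at 2.51 and 3.10 CPM in 2 WT mice, 8.29, 7.42 and 14.8 CPM in 3 KO mice and 0 in the other 3 mice. Of these 10 dendritic cells, 8 had no UMI of Cd3d, Cd3e or Cd3g, and all 10 had none of the NK-cell markers. The T minus NK difference of Il23r was 0.77 on the log2 scale (exact permutation p = 0.125, 0.200 adjusted).

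**Figure D2:**
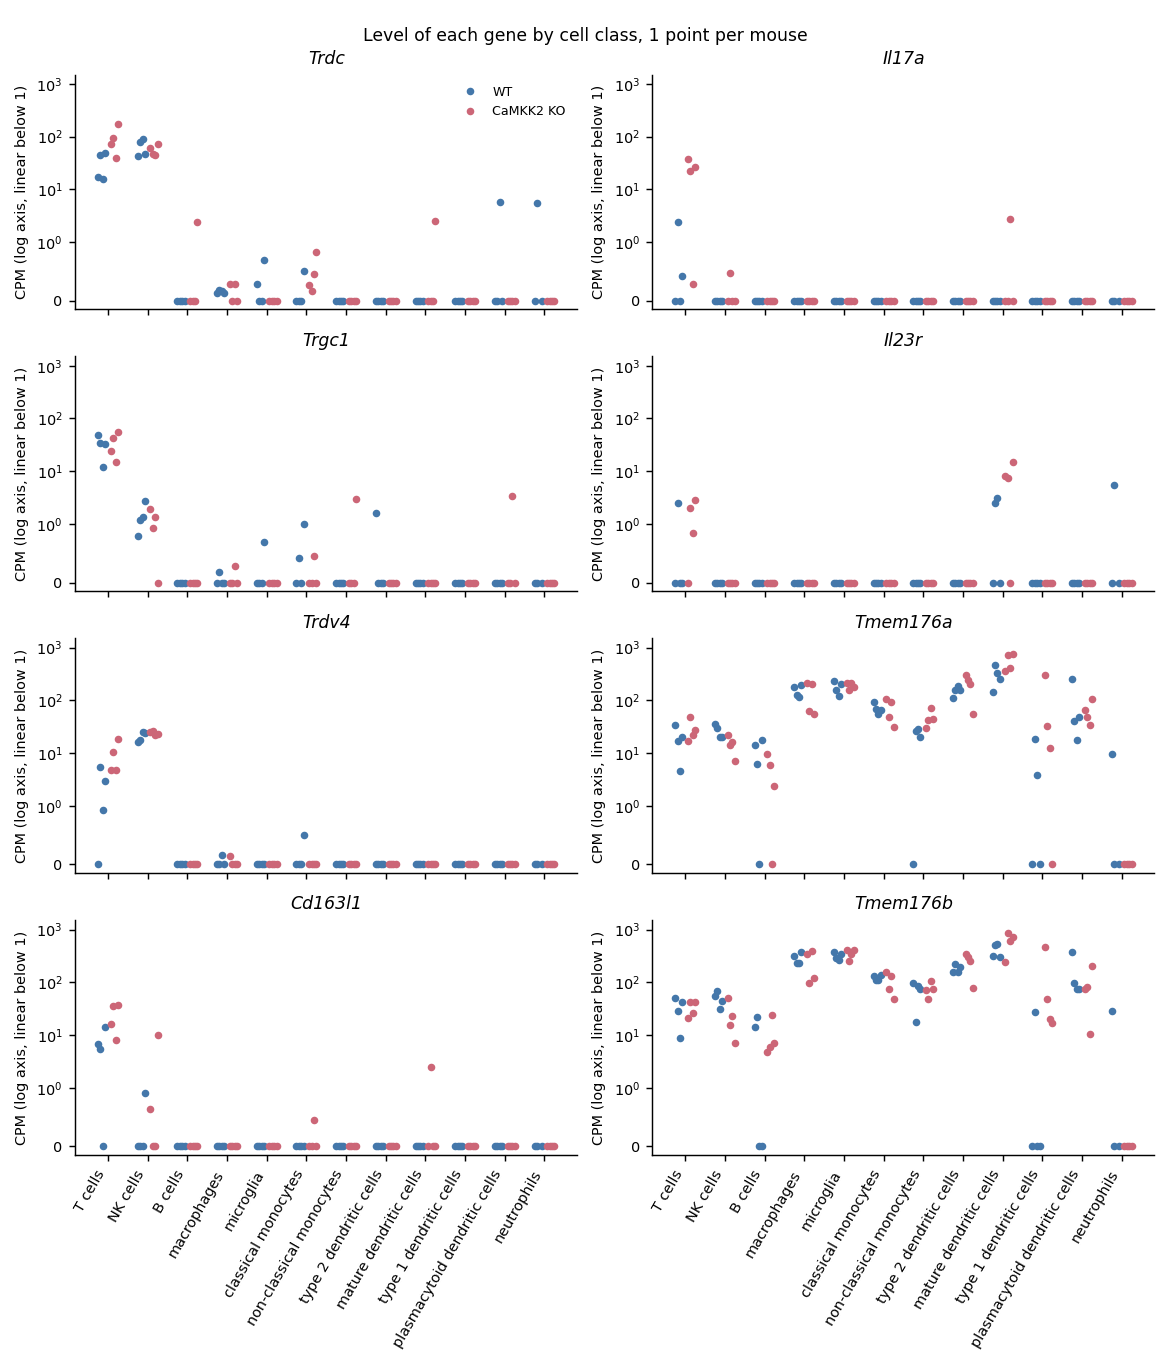
Level of each of the 8 genes in CPM (y axis, log scale, linear below 1) in 12 gated classes (x axis), with 1 point per mouse, WT in blue and CaMKK2 KO in red. The 16 basophils and mast cells and the cells that met no gate are not shown. Trgc1, Cd163l1 and Il17a stand out in T cells, Trdc and Trdv4 in T and NK cells, and Tmem176a and Tmem176b reach their highest points in mature dendritic cells, with single mice of other dendritic classes, microglia and macrophages next.

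Within T cells the first 6 genes were found in the same few cells. At least 1 of them was detected in 159 T cells and at least 2 in 65, at least 4 in 29 and all 6 in 2, while 1371 T cells had none. In NK cells 100 cells had at least 2, 4 had at least 3 and 0 had 4. Of the 86 T cells with Trdc, 60 (69.8%) also had Trgc1, which is 48.0% of the Trgc1 cells. In each mouse the share of T cells with Trgc1 was higher among those with Trdc (71.0% ± 21.3) than among those without (5.72% ± 3.95). Cd163l1 was detected in 33 of the Trdc cells, which made up 38.4% of the Trdc cells and 91.7% of the Cd163l1 cells, and Trdv4 in 26 of the 36 Cd163l1 cells. Of the 14 Il17a cells, 13 had Cd163l1 and Trdc, 11 had Trdv4 and 3 had Il23r, and the remaining cell, from KO mouse M1 with 11 Il17a UMIs, had none of the other 5. These are counts of cells and no test was made over them.

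The 65 T cells with at least 2 of the 6 genes fell apart by Cd163l1, a split made after the values had been seen. The 33 cells with Cd163l1 came from 6 mice, with 0, 3, 0 and 5 in WT mice M1 to M4 and 4, 11, 5 and 5 in KO mice M1 to M4. Shares in both sets are pooled over cells. Trdc was present in all 33 of them, Trgc1 in 93.9%, Trdv4 in 78.8%, Il17a in 39.4% and Il23r in 27.3%. The 32 cells without Cd163l1 came from all 8 mice, with 2, 5, 2 and 4 in WT and 3, 5, 6 and 5 in KO mice. They had Trdc in 96.9% and Trgc1 in 93.8%, but Trdv4 in 6.25%, Il23r in 3.12% and Il17a in none. Cells without Cd163l1 had to hold at least 2 of the other 5 genes, so their high shares of Trdc and Trgc1 follow largely from how they were chosen. The alpha constant region Trac was found in 9.09% of the first, 37.5% of the second and 97.3% of the other 1465 T cells, whereas a beta constant region (Trbc1 or Trbc2) was found in 97.0% of the first set and in all of the second. Among the 65 cells 6 had a Cd8a or Cd8b1 UMI, 2 a Cd4 UMI and 1 a Foxp3 UMI.

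**Figure D3:**
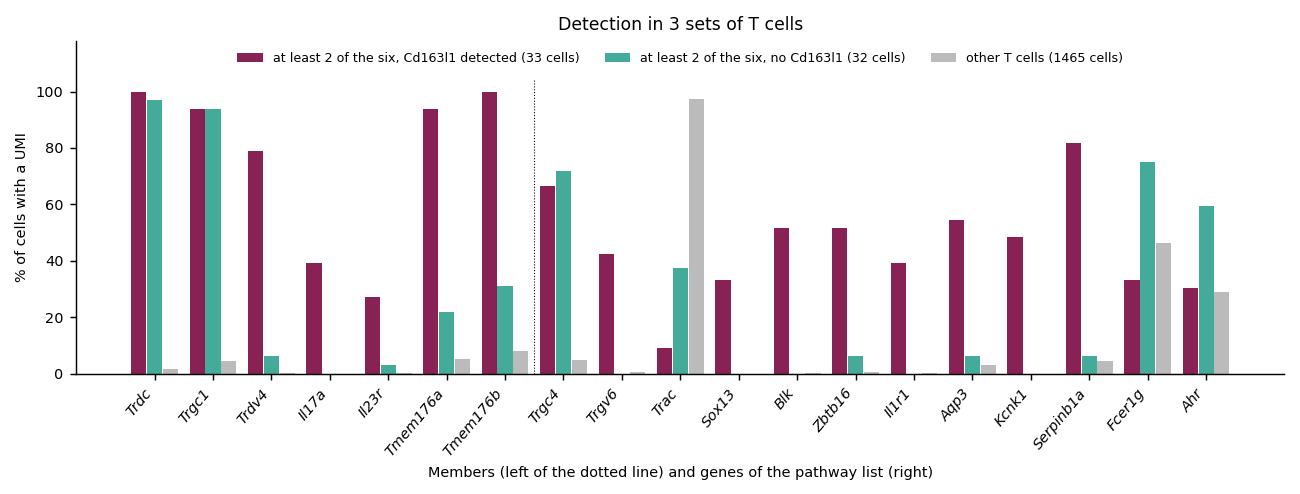
Percentage of cells with a UMI (y axis) of 7 of the 8 genes and of 12 genes of the pathway list (x axis) in T cells with at least 2 of the 6 genes and Cd163l1 (33 cells), the same without Cd163l1 (32 cells) and all other T cells (1465 cells). Trdc and Trgc1 bars are high in both of the first sets, while Il17a, Trgv6, Sox13, Blk, Il1r1 and Kcnk1 bars appear in the set with Cd163l1.

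Some other genes of the pathway followed this division. Of 84 listed genes 74 were in the files and 63 were detected with at least 10 UMIs in T and NK cells together, and 18 of these 63 stood at least 4-fold higher in the 65 cells than in other T cells, in CPM over the pooled cells. Of all 12861 genes with as many UMIs 531 did so, or 4.13%. This is a description with no test, as the cells were chosen by the 6 genes. The rest of the 63 did not reach this cut and differed in direction between the sets. Among them Ahr was found in 30.3% of the cells with Cd163l1 and 59.4% of those without, and Ccr2 in 75.8% and 12.5%. Of the receptor genes, Trgc4 was at 327 against 10.9 CPM, beside 18.9 CPM in NK cells, and was about as common in both sets (66.7% and 71.9% of cells). Trgv6, the variable segment of a fetal wave of gamma-delta T cells, was found in 42.4% of the cells with Cd163l1, with 26 UMIs, and in 0 of the 32 others. Trgv1 and Trgv4 went the other way, at 21.9% and 18.8% of the cells without Cd163l1 against 3.03% and 0%, and Trdv2-2 was found in 9.38% against 0%. In the cells without Cd163l1 these 3 segments rest on 9, 6 and 4 UMIs. Trdv2-2 had more UMIs in NK cells, 70, than in all T cells, 10.

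Of the transcription factors and signalling genes, Sox13 (33.3%) and the kinase gene Blk (51.5%), both known for interleukin-17-committed gamma-delta T cells, were found in none of the 32 others. Zbtb16, which encodes the innate-lymphocyte factor PLZF, was at 51.5% against 6.25%. Sox4 was seen in 6.25% of the cells without Cd163l1, with only 3 UMIs, and in none of the first set. The interleukin 1 receptor gene Il1r1 (39.4%), the interleukin 17 receptor gene Il17re (24.2%) and the potassium channel gene Kcnk1 (48.5%) were likewise not detected in the 32 cells without Cd163l1. So few cells leave room for a low share of each gene not detected in them. The water channel gene Aqp3 was found in 54.5% against 6.25%, the protease inhibitor gene Serpinb1a in 81.8% against 6.25%, Lmo4 in 57.6% against 18.8%, Actn2 in 21.2% against 3.12%, and Ramp1, a receptor partner for the neuropeptide CGRP, in 66.7% against 46.9%. In other T cells these genes were found in 20.8% of cells for Ramp1 and in 8.40% or less for the rest.

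Tmem176a and Tmem176b were not T-cell genes in this tissue by their level. Tmem176b was at 512 ± 218 CPM in mature dendritic cells, 335 ± 60.8 in microglia, 267 ± 115 in macrophages, 213 ± 84.3 in type 2 dendritic cells, 125 ± 115 in plasmacytoid dendritic cells and 114 ± 36.9 in classical monocytes (mean ± SD, 8 mice). Type 1 dendritic cells followed at 73.1 ± 162 CPM, where KO mouse M1 was at 471 CPM and 3 of the 4 WT mice at 0, then non-classical monocytes at 72.7 ± 28.6, NK cells at 37.0 ± 21.3, T cells at 33.0 ± 14.2, B cells at 9.83 ± 9.42 and neutrophils at 4.17 ± 11 CPM. Each class overlapped with the next in this order within 1 SD, and the same held for Tmem176a. The ends of the order did not overlap, since the lowest mouse for mature dendritic cells was at 240 CPM and the highest for T cells at 51.5 CPM. Neither gene passed the test of T against NK cells (Tmem176a 0.10 ± 1.23 and Tmem176b -0.04 ± 1.40 on the log2 scale, mean ± SD, exact permutation p adjusted 0.945 for both). T minus NK was on average -0.69 in WT and 0.89 in KO mice for Tmem176a, and -0.77 and 0.69 for Tmem176b. The test of this between genotypes is given below. Mature dendritic cells held Tmem176a in 80.4% and Tmem176b in 84.5% of cells. The complement genes C1qa, C1qb and C1qc, which mark macrophages, ranged from 124 to 10904 CPM in the mature dendritic cells of single mice. The mouse with the lowest value, KO mouse M2, had the highest Tmem176b at 853 CPM. KO mouse M1, at 481 CPM of these genes, had the lowest Tmem176b at 240 CPM, and KO mouse M3, at 4492 CPM, had 599 CPM. The highest value of the complement genes was in WT mouse M1, from 5 cells, with 316 CPM of Tmem176b. WT mice M2, M3 and M4, at 650, 183 and 2189 CPM, had 517, 540 and 296 CPM, and KO mouse M4, at 1437 CPM, had 734 CPM. The part of macrophage RNA in these values was not tested.

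Within T cells the pair went with the 6 genes. The 159 T cells with at least 1 of the 6 held 69.0% of the Tmem176a and 66.7% of the Tmem176b UMIs of all T cells, at 154 and 196 CPM. The 1371 T cells with none were at 7.83 and 11.1 CPM, beside 5.32 and 10.0 CPM in B cells. The part of free RNA in these values was not tested. All 33 cells with Cd163l1 had Tmem176b and 31 had Tmem176a (1059 and 883 CPM), which exceeded the mean level of mature dendritic cells. The cells without Cd163l1 were at 162 and 106 CPM. All 14 Il17a cells had Tmem176b and 13 had Tmem176a.

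The neighbours were found in the same cells in every class examined. Of the macrophages with Tmem176a, 93.1% had Tmem176b, and of mature dendritic cells 94.9%. In T cells 76 and in NK cells 83 cells had both. Among cells with Tmem176a the share with Tmem176b was higher than among cells without it in all 8 mice in T cells (68.1% ± 13.1 against 5.43% ± 1.69), NK cells (67.8% ± 27 against 5.44% ± 1.86) and macrophages (91.0% ± 5.97 against 35.8% ± 12.6). UMIs count transcript ends and were not divided by gene length, so the ratio of the 2 genes is read only between classes. Tmem176b over Tmem176a was 1.84 in macrophages (1.54 to 2.24 over mice), 1.73 in microglia and 1.64 in classical monocytes, against 1.21 in type 2 (0.856 to 1.46) and 1.16 in mature dendritic cells (0.659 to 2.14). Macrophages and type 2 dendritic cells did not overlap between mice. No test was made of this ratio.

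**Figure D4:**
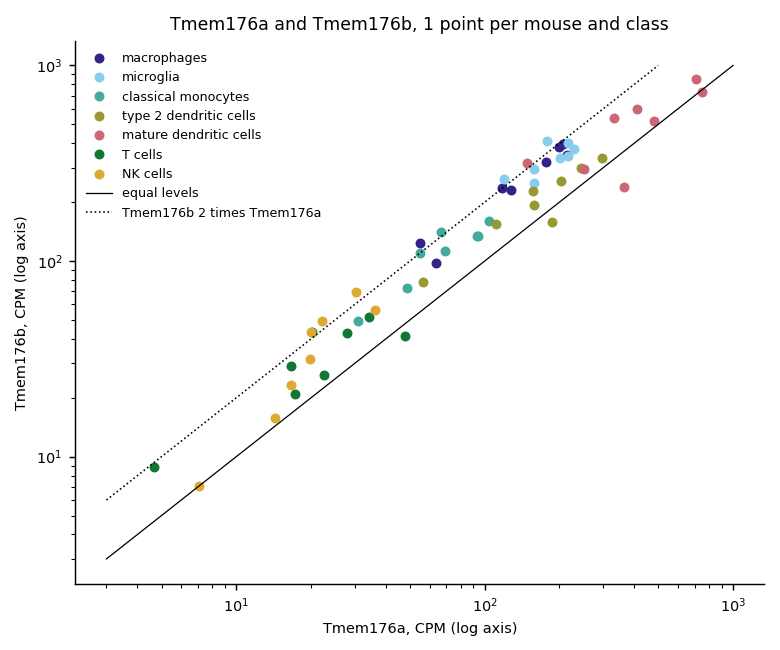
Tmem176b against Tmem176a, both in CPM on log axes, with 1 point per mouse and class for 7 classes, the solid line marking equal levels and the dotted line Tmem176b at 2 times Tmem176a. Macrophages and microglia lie near the dotted line and type 2 dendritic cells near the solid one, with T and NK cells at the low end.

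Across the 13 class means, the genes most like each of 5 members were ranked by Pearson's r of log2(CPM + 10) over 10462 genes, a description over 13 points that come from the same 2 libraries. Closest to Trdc were Nrgn, Trgc4, Gzmf, Gata3 and Sh2d1a (r = 0.998 to 0.996). Closest to Trgc1 were Rgs8, Izumo1r, Trat1, Ccr8 and Cd163l1, closest to Cd163l1 were Rgs8, Trat1, Ccr8, Il17a and Foxp3, and closest to Il17a were Foxp3, Cd6, Cd40lg, Trgv2 and Trgc2. Likeness over classes did not mean the same cells, since Foxp3, the factor of regulatory T cells, was detected in 1 of the 14 Il17a cells. For Tmem176b the closest gene was Tmem176a (r = 0.991), and the next was Pld2 (0.928).

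CaMKK2 KO was compared with WT by the sums per mouse, with edgeR's quasi-likelihood test over all genes with at least 50 UMIs in a class and Benjamini-Hochberg adjustment. None of the 8 genes passed an adjusted p of 0.05 in any class tested. In T cells 7 of the 8 were tested (Il23r had too few UMIs), in NK cells 4, and in macrophages, classical monocytes, type 2 dendritic cells and microglia the Tmem176 pair. Of all genes tested, 1.92% were called in T cells, 3.15% in NK cells, 2.47% in macrophages, 1.53% in classical monocytes, 0.728% in type 2 dendritic cells and 0.776% in microglia. In T cells Il17a (6 UMIs in WT, 169 in KO mice), Trdv4 (20 and 74) and Cd163l1 (47 and 193) reached the minimum only with the KO mice. Without adjustment edgeR gave p under 0.05 for 5 of the 7 in T cells (15.8% of all genes), among them these 3, so nothing is read from that count, and for 2 of 4 in NK cells (16.6%) and none of the pair in the myeloid classes. DESeq2 called none of them after adjustment.

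Il17a had the largest difference. Its T-cell level was 0, 2.45, 0 and 0.427 CPM in WT mice M1 to M4 and 36.9, 21.8, 0.285 and 26.1 CPM in KO mice M1 to M4. KO mice M1, M2 and M4 were above every WT mouse and KO mouse M3 was not, so the groups overlapped. The log2 fold change was 4.41 ± 1.11 (SE), from 6 UMIs in 2 WT cells to 169 UMIs in 12 KO cells, with an adjusted p of 0.0585 by edgeR. The gene reached the minimum of 50 UMIs, and also that of 10, through the KO mice alone. Single cells weighed heavily, as given above. By edgeR the adjusted p was 0.0001076 without KO mouse M3, the KO mouse that was not above every WT mouse. It was 0.045 with genes down to 10 UMIs tested, and over all alternatives it reached 0.1959, without WT mouse M4. Nothing is read from the 2 values under 0.05. By share, Il17a cells were 0.246% ± 0.284 of WT and 1.51% ± 1.27 of KO T cells (two-sided exact permutation test of 4 against 4 mice, p = 0.0857, 0.186 adjusted over 13 comparisons).

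Trdc in T cells was on average 31.2 ± 17.4 CPM in WT and 94.7 ± 57.5 CPM in KO mice. The values per mouse given above overlapped, KO mouse M3 at 39.8 CPM lying below 2 WT mice. The log2 fold change was 1.36 ± 0.41 with an adjusted p of 0.115 by edgeR, and without KO mouse M3 it was 1.65 with an adjusted p of 0.0327. Cd163l1 (1.70 ± 0.63, adjusted p = 0.198), Trdv4 (1.53 ± 0.57, adjusted p = 0.202) and Tmem176a (0.92 ± 0.40, adjusted p = 0.288) had positive differences that did not pass by edgeR. Leaving out 1 mouse moved Cd163l1 between 1.18 (WT mouse M3) and 2.90 (WT mouse M4), Trdv4 between 1.15 (WT mouse M3) and 2.16 (WT mouse M2), and Tmem176a between 0.52 (WT mouse M3 or KO mouse M2) and 1.17 (WT mouse M4). Trgc1, at 32.0 ± 14.9 and 34.5 ± 18.1 CPM, and Tmem176b, at 33.1 ± 18.7 and 32.9 ± 11 CPM, had log2 fold changes of 0.18 ± 0.39 and 0.13 ± 0.37, with intervals of -0.58 to 0.95 and -0.60 to 0.86. Il23r, not tested, had 5 UMIs in WT and 11 in KO T cells.

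The number of T cells with at least 2 of the 6 genes was 2, 8, 2 and 9 in WT mice and 7, 16, 11 and 10 in KO mice. As shares of T cells these were 5.41, 4.12, 0.939 and 4.21% in WT and 3.24, 7.48, 3.55 and 7.58% in KO mice. The groups overlapped, at 3.67% ± 1.91 and 5.46% ± 2.39, and an exact permutation test gave p = 0.286. With at least 3 genes required, the shares were 0.971% ± 1.17 and 2.98% ± 1.80 (exact permutation p = 0.143).

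In NK cells Trdc was detected in a smaller share of cells in each KO mouse than in any WT mouse, before but not after cells were brought to equal depth. The share of NK cells with Trdc was 37.1, 51.7, 42.2 and 34.6% in WT and 30.8, 24.4, 30.4 and 30.6% in KO mice, and the groups did not overlap. The difference of -12.4 percentage points had p = 0.0286 by an exact permutation test, the smallest that 4 mice against 4 allow, and 0.186 after adjustment over 13 comparisons. The NK cells of KO mice M1, M2 and M4 had medians of 6686, 5469 and 5614.5 UMIs, below the 7603 to 9970 of the WT mice, and those of KO mouse M3 had 10763.5, above them. Thinned to 3000 UMIs per cell, the shares were 18.1% ± 5.46 and 15.2% ± 2.7 and overlapped (exact permutation p = 0.371). In CPM the log2 fold change was -0.26 ± 0.22 with an adjusted p of 0.620 by edgeR, and that of Trdv4 was 0.16 ± 0.19 (adjusted p = 0.737).

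Tmem176b in NK cells was at 56.0, 69.3, 31.4 and 43.5 CPM in WT and 49.5, 15.7, 23.1 and 7.07 CPM in KO mice. KO mouse M1 lay within the WT range and the other 3 below it. The log2 fold change was -1.0 ± 0.34 with an adjusted p of 0.132 by edgeR, and -1.49 with 0.0199 without KO mouse M1. Of the Tmem176a and Tmem176b UMIs of all NK cells, 76.1% lay in 57 cells with at least 5 of them, which made up 8.25, 6.71, 2.96 and 6.49% of the NK cells in WT and 4.14, 1.43, 4.20 and 0% in KO mice. Tmem176a was at -0.71 ± 0.26 (adjusted p = 0.176), and its share of NK cells at 3000 UMIs, 5.80% ± 1.31 against 3.17% ± 0.907, did not overlap (exact permutation p = 0.0286, 0.248 adjusted). The macrophage genes C1qa, C1qb and C1qc moved with the genotype in both lymphoid classes, at 117 to 153 CPM in WT and 72.9 to 102 in KO NK cells and at 146 to 185 and 73.4 to 124 CPM in T cells, and the part of free RNA in the Tmem176 values was not tested.

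Whether the genotype difference itself differed between T and NK cells was tested for the 4 genes fitted in both. For Trdc, T cells minus NK cells was -1.13 ± 1.06 in WT and 0.57 ± 0.65 in KO mice on the log2(CPM + 1) scale (exact permutation p = 0.0571), and for Trdv4, Tmem176a and Tmem176b p was 0.0857, 0.0857 and 0.114. After adjustment over the 4 genes all were at 0.114. In the 4 myeloid classes fitted, the pair did not differ between genotypes by edgeR. Tmem176b was at 292 ± 73.4 and 242 ± 154 CPM in macrophages, where KO mice M2 and M4, at 97.9 and 123 CPM, lay below all others and M1 and M3, at 348 and 399 CPM, among the highest. The adjusted p over the 4 myeloid classes ranged from 0.606 in type 2 dendritic cells to 0.999 in classical monocytes. Mature dendritic cells, with the highest levels of the pair, were not tested. There Tmem176a was at 303 ± 140 CPM in WT and 560 ± 199 in KO mice, and Tmem176b at 417 ± 129 and 607 ± 265. Both levels overlapped between genotypes. The shares of cells with a UMI did not overlap. Tmem176a was found in 63.8% ± 16.5 of WT cells (at most 75.8%) and 87.5% ± 2.97 of KO cells (at least 83.3%). Tmem176b was found in 77.1% ± 4.53 (at most 80%) and 89.8% ± 5.73 (at least 83.3%). Thinned to equal depth, the Tmem176a shares still lay apart, at most 58.7% in WT and at least 62.6% in KO mice. The thinned Tmem176b shares overlapped. How many of all genes have shares that lie apart in this class was not counted, so nothing is read from these gaps. WT mouse M1 gave only 5 mature dendritic cells.

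**Figure D5:**
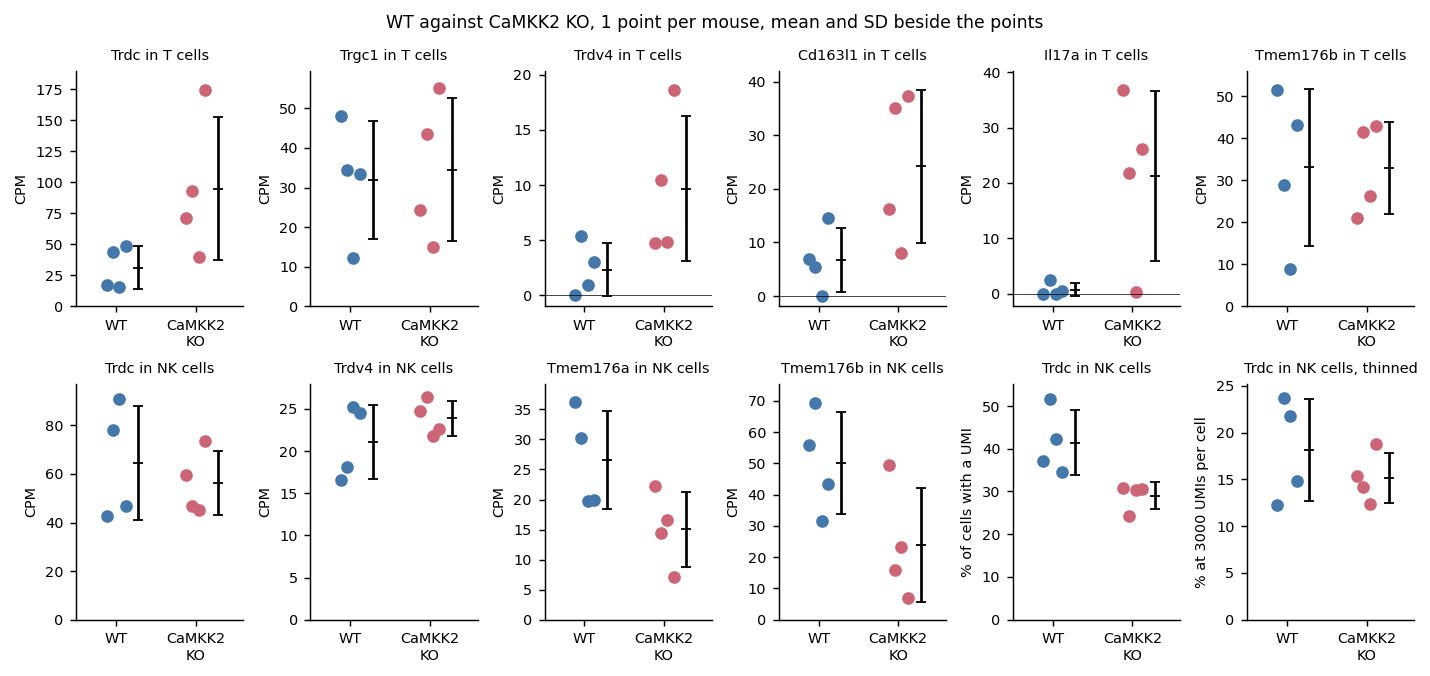
WT (blue) against CaMKK2 KO (red), with 1 point per mouse and the mean ± SD of 4 mice beside the points, in CPM or in percentage of cells (y axes from 0 or with 0 marked). In T cells Il17a and Trdc points of KO mice reach above those of WT mice with overlap, and in NK cells the Trdc shares of the 4 KO mice lie below the 4 WT mice until cells are thinned to 3000 UMIs.

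The other genes of the pathway were compared in the same fits. The list had been chosen with earlier results of these data known. In T cells 49 of the 84 were tested, and 4 were higher and 0 lower in KO mice, where 1.92% of all genes were called. The 4 include Il21, which entered the test through the KO mice alone, as given below. Over the 49 genes the median log2 fold change was 0.28 beside 0.07 over all genes. None of the 3 tested genes of the gamma-delta receptor (Trgc2, Trgc4 and Trgv2) and none of the 3 of the alpha-beta receptor was called. Trgc2 and Trgv2 lay mostly outside the 65 T cells with at least 2 of the 6 genes. The other T cells held 1530 of the 1649 Trgc2 and 726 of the 786 Trgv2 UMIs. Ccr2, the chemokine receptor for entry into inflamed tissue, rose from 69.2 ± 21 to 185 ± 20.5 CPM (log2 1.30 ± 0.15, edgeR adjusted p = 0.00025) with no overlap, and it was called in all 15 alternatives. Ahr, which encodes a ligand-activated factor of type 17 and gamma-delta T cells, rose from 34.5 ± 6.18 to 65.2 ± 16.0 CPM with no overlap (edgeR adjusted p = 0.0256). Its call was lost in 3 of 15 alternatives, without WT mouse M2 or M3 or KO mouse M2, where the adjusted p was at most 0.111. Il21, a cytokine of helper T cells, had 0 UMIs in the 658 WT T cells and 96 UMIs in 31 of the 872 KO T cells, at least 23.2-fold higher against a floor of 3 UMIs over the group (edgeR adjusted p = 0.0128, 0.0514 without WT mouse M4). Il21 reached the minimum of 50 UMIs through the KO mice alone. No Il21 UMI was in the 65 cells with at least 2 of the 6 genes. These 65 cells held 77 Ahr and 107 Ccr2 UMIs, and the other T cells 733 and 2144. Cd247, the signalling zeta chain of the receptor, rose by 0.61 on the log2 scale (edgeR adjusted p = 0.0491), a call lost in 12 of 15 alternatives, among them without each mouse except KO mouse M3.

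In NK cells 41 of the list were tested, and 3 were higher and 2 lower in KO mice, where 3.15% of all genes were called. The 2 include Lta, which entered the test through the WT mice alone, as given below. Over the 41 genes the median log2 fold change was 0.24 beside 0.06 over all genes. Ltb, which encodes lymphotoxin beta, fell from 308 ± 31.3 to 180 ± 8.55 CPM (log2 -0.78 ± 0.11, edgeR adjusted p = 0.00063), with no overlap and in all 15 alternatives. Lta, its partner, fell from 9.17 ± 4.53 to 2.19 ± 1.69 CPM with no overlap (edgeR adjusted p = 0.0319). The call was lost in 5 of 14 alternatives, without WT mouse M2 or M4 or KO mouse M1, M3 or M4. Lta had 6, 26, 10 and 22 UMIs in WT mice M1 to M4 and 3, 10, 3 and 1 in KO mice M1 to M4. It thus reached the UMI minimum for testing through the WT mice alone, the group in which it was higher. Trbc1, the beta constant region that NK cells also transcribe, rose from 426 ± 29.6 to 574 ± 41.3 CPM (edgeR adjusted p = 0.0271, lost in 6 of 15 alternatives, TMM scaling and without WT mouse M1, M3 or M4 or KO mouse M2 or M4). Id2 and Cd247 rose by 0.38 and 0.60 on the log2 scale, with overlap between the groups for Cd247 (KO mouse M3 at 56.5 CPM, WT mouse M3 at 57.4 CPM), and both calls were lost in 10 of 15 alternatives, among them without each mouse except KO mouse M3 for both and WT mouse M3 for Cd247.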

How the data were processed

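Per the submitters' processing notes, the 10x 3′ v3.1 reads went through bcl2fastq 2.20, Cell Ranger 4.0.0 and STAR 2.7.5c on mm10. The authors deposited raw UMI counts per gene and barcode, with hashtag counts, not normalized. Barcodes were given to mice by HTODemux (Seurat 5.3.0, quantile 0.99). Hashtag doublets and negatives, cells under 200 genes, outliers beyond 3 median absolute deviations in UMIs, genes or mitochondrial percentage, and the top Scrublet scores (scanpy 1.11.5), 222 WT and 169 KO cells, were left out. Gates took at least 4 marker UMIs for T and NK cells and 10 for B cells, with fewer than 3 of Csf1r, Adgre1, Mertk and Fcgr1.

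UMIs were added up by mouse within a class and fitted with edgeR 4.0.16 in R 4.3.3, with the class total as library size. The study's test takes cells as replicates and was not followed. The steps were tested on simulated data. The 8 genes, the marker and pathway lists and the gates were chosen with earlier results of these data known. Pathway genes were named when called between genotypes in T or NK cells, or at least 4-fold higher in T cells with at least 2 of the 6 genes. A gene that met this rule is not reported here. Alternatives were DESeq2 1.42.0, TMM scaling, minima of 10 and 200 UMIs, outlying or high-score cells kept, gates 1 UMI higher, a pseudocount of 10 CPM, thinning to 3000 UMIs and each mouse left out. Shares and T against NK levels were tested in Python 3.11.15 with scipy 1.17.1. Positions are from GENCODE M21.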

Additional observations from a re-analysis of the deposited data

Results flagged for a closer look

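Of 48 groups of 4 mice examined for a value far from the others, 1 met Dixon's criterion, and chance alone meets it in about 1 in 20 groups. It was the share of NK cells with a Trdc UMI in CaMKK2 KO mouse M2, 24.37%, while the other 3 KO mice lay between 30.42 and 30.77% (the gap was 0.945 of the range). Without this mouse the difference from WT was -10.8 percentage points.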

How the results depend on the processing

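WT mice could not be paired with KO mice because the hashtag numbers only name mice, and WT mouse M1 and KO mouse M1 share nothing else. None of the 8 genes was called between genotypes, and under the alternatives 4 of 283 fits called one: Trdc (adjusted p = 0.0327) and Il17a (0.0001076) in T cells without KO mouse M3, Il17a at a minimum of 10 UMIs (0.045) and Tmem176b in NK cells without KO mouse M1 (0.0199). Il17a reached both minima through the KO mice alone. In the main fits 0.728% (type 2 dendritic cells) to 3.15% (NK cells) of all genes were called, so nothing is read from the count of 4. Counts of genes called moved from 188 to 107 in T cells and from 75 to 47 in microglia at a minimum of 200 UMIs, and from 300 to 542 in NK cells with outlying cells kept. With DESeq2 they moved from 275 to 662 in macrophages, from 151 to 295 in classical monocytes, from 54 to 124 in type 2 dendritic cells and from 75 to 151 in microglia, where the cause was not tested. With each mouse left out they ran from 57 to 222 in T cells, 135 to 847 in NK cells, 126 to 366 in macrophages, 66 to 258 in classical monocytes, 25 to 391 in type 2 dendritic cells and 38 to 172 in microglia, the highest of NK cells, classical monocytes, type 2 dendritic cells and microglia without KO mouse M3. The percentage of calls that were higher in KO mice was 63.3 in T cells (38.9 by TMM, 36.0 by DESeq2), 62.3 in NK cells (52.1, 49.7), 38.2 in macrophages (55.0, 60.1) and 56.0 in microglia (70.4, 71.5). With the class total as library size, the median log2 fold change over all genes was lowest in microglia, at -0.11. The Trdc share of NK cells, -12.36 percentage points, was -2.976 at 3000 UMIs per cell and -14.63 to -8.933 with each mouse left out (exact permutation p = 0.0571, the smallest then possible). The 3 genes that differed between T and NK cells numbered 0 to 3 with each mouse left out, where 7 mice limit the adjusted p.

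Signs turned in the following differences, none of which was called. Tmem176b in T cells was -0.02706 by DESeq2, and Tmem176a in classical monocytes was -0.02487 by DESeq2, -0.007405 by TMM, -0.006195 with high-score cells kept and -0.03484 with higher gates. With single mice left out Trgc1 in T cells ran from -0.1472 to 0.482, Tmem176b in T cells from -0.2598 to 0.5166, and Tmem176a from -0.5046 to 0.05973 in macrophages, -0.2774 to 0.257 in classical monocytes and -0.01864 to 0.2662 in microglia. T minus NK ran from -0.4942 to 0.03789 for Trdc, -0.1497 to 0.3824 for Tmem176a and -0.3947 to 0.2002 for Tmem176b. Of 19 differences between genotypes, 14 kept their sign throughout. WT mouse M1 gave only 37 T cells, the 8 genes rest on 86 Trdc and 14 Il17a T cells, and 4 mice against 4 of 1 channel each bound every comparison.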

Other observations

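NK cells held a small set with much Tmem176, described here by values only, with a limit of 5 UMIs of the pair set after the values had been seen. The set had 57 of 1398 NK cells and 76.1% of the Tmem176a and Tmem176b UMIs of all NK cells. It had the same median of 15 UMIs of the NK-cell markers as the other 1341 NK cells, 0 of the T-cell markers, and a higher median depth of 12075 against 7231 UMIs. Il7r, the interleukin 7 receptor gene, was at 231 CPM against 12.8 in the other NK cells, Cxcr6 at 118.2 against 3.50, Trgc4 at 130 against 12.8, Rora at 90.9 against 10.9, Cd226 at 238 against 37.1 and Tnfsf10 at 142 against 28.7. Gzma, a granzyme, was at 534 against 6950 CPM, Ccl5 at 540 against 4138, Ccl4 at 87.0 against 561, and the Ly49 receptor genes Klra4, Klra7 and Klra9 at 9.09, 63.7 and 25.98 against 323, 387 and 214. These directions were seen in all 7 mice that had such cells, except for Trgc4, in 6 of 7. Eomes was at 48.1 against 250 CPM. Trdc was found in 12.3% of the set and 34.6% of the other NK cells, and Trdv4 in 17.5% and 18.9%. The set made up 8.25, 6.71, 2.96 and 6.49% of the NK cells of WT mice M1 to M4 and 4.14, 1.43, 4.20 and 0% of those of CaMKK2 KO mice.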
